A study of Mus musculus with 15 samples.

Results

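The heat shock genes of the cytosol described here are 10 genes chosen by symbol in both deposited count tables: HSPA6, HSPA1A, HSPA1B, HSPA8, HSPH1, DNAJB1, BAG3, HSP90AA1, HSPB1 and HSF1. They are 10 of the 56967 gene names used. Each stood on a single row in both tables, and all 10 were among the 19051 genes tested. The list was drawn up with the higher HSPA6 level in cells labelled shSHCBP1 already known, so that contrast is given as a description. HSPA6 passed the filter on low counts only through the groups in which it is high, since its counts in the 3 control libraries were 7, 14 and 6.

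Chaperones of the HSP70 family bind exposed hydrophobic stretches of unfolded proteins and release them in cycles of ATP hydrolysis. J-domain proteins such as DNAJB1 start that cycle, and HSPH1 and BAG3 exchange the nucleotide that ends it. Small heat shock proteins such as HSPB1 hold unfolded proteins without ATP, and HSP90AA1 acts on partly folded clients. HSF1 is the transcription factor that drives these genes when proteins unfold. HSPA6 and HSPA1A are classical inducible members, whereas HSPA8 is the constitutive member that cells keep at a high level without stress.

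Messenger RNA was sequenced in 15 libraries of 3 each from cells labelled MDA-MB-468, a long-established breast cancer line, with a genotype label that reads invasive breast carcinoma. Per the labels, the cells had received a hairpin against TMEM45A (a transmembrane protein), a hairpin against SHCBP1 (a binding partner of the SHC1 adaptor) or the control hairpin sh_NC, here NC. Each target had 2 sets of libraries: shTMEM45A set 2 and set 4, named after their columns, and shSHCBP1_2 and shSHCBP1_1. All groups, NC included, had been transfected with a hairpin, and no heat or drug treatment is named. NC and both shSHCBP1 groups stand in the same table and shTMEM45A in another, so for shTMEM45A the target and the table cannot be told apart. Nothing in the labels tells separate cultures from repeat preparations of the same cells, so each p-value is set against a spread between libraries that may be technical only.

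Libraries held 13780294 to 16484000 counts, and levels below are CPM, counts scaled to a common library total after TMM correction for differences in composition. In any library 3 counts, the floor that a count of 0 allows, came to at most 0.218 CPM, a limit that covers counting error only. TMEM45A itself was lower against NC by a log2 change of -0.46 ± 0.10 (SE) in set 2 and -0.58 ± 0.10 in set 4. In these comparisons 39.8% and 38.9% of all genes were called lower, and the lower quartile of all log2 changes was -0.88 and -0.83. A fall of this size is therefore common among all genes there and does not by itself show a knockdown. SHCBP1 was not lower in the libraries labelled as its knockdown, at 45.0, 44.9 and 43.0 CPM in shSHCBP1_2 and 46.4, 46.4 and 48.6 CPM in shSHCBP1_1, against 46.3, 44.7 and 41.3 CPM in NC. That goes against these labels, and each direction given below for the libraries labelled shSHCBP1 is a direction between labels, with shSHCBP1 standing throughout for libraries so labelled. The defining basal keratins KRT5, KRT6A and KRT6B and the basal factor TP63 had 0 counts in all 5 groups, and 7 of 16 markers of epithelial and basal-like breast cells passed the filter on low counts. These zeros go against the labelled line, whose name is used here only as a label.

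**Figure D1:**
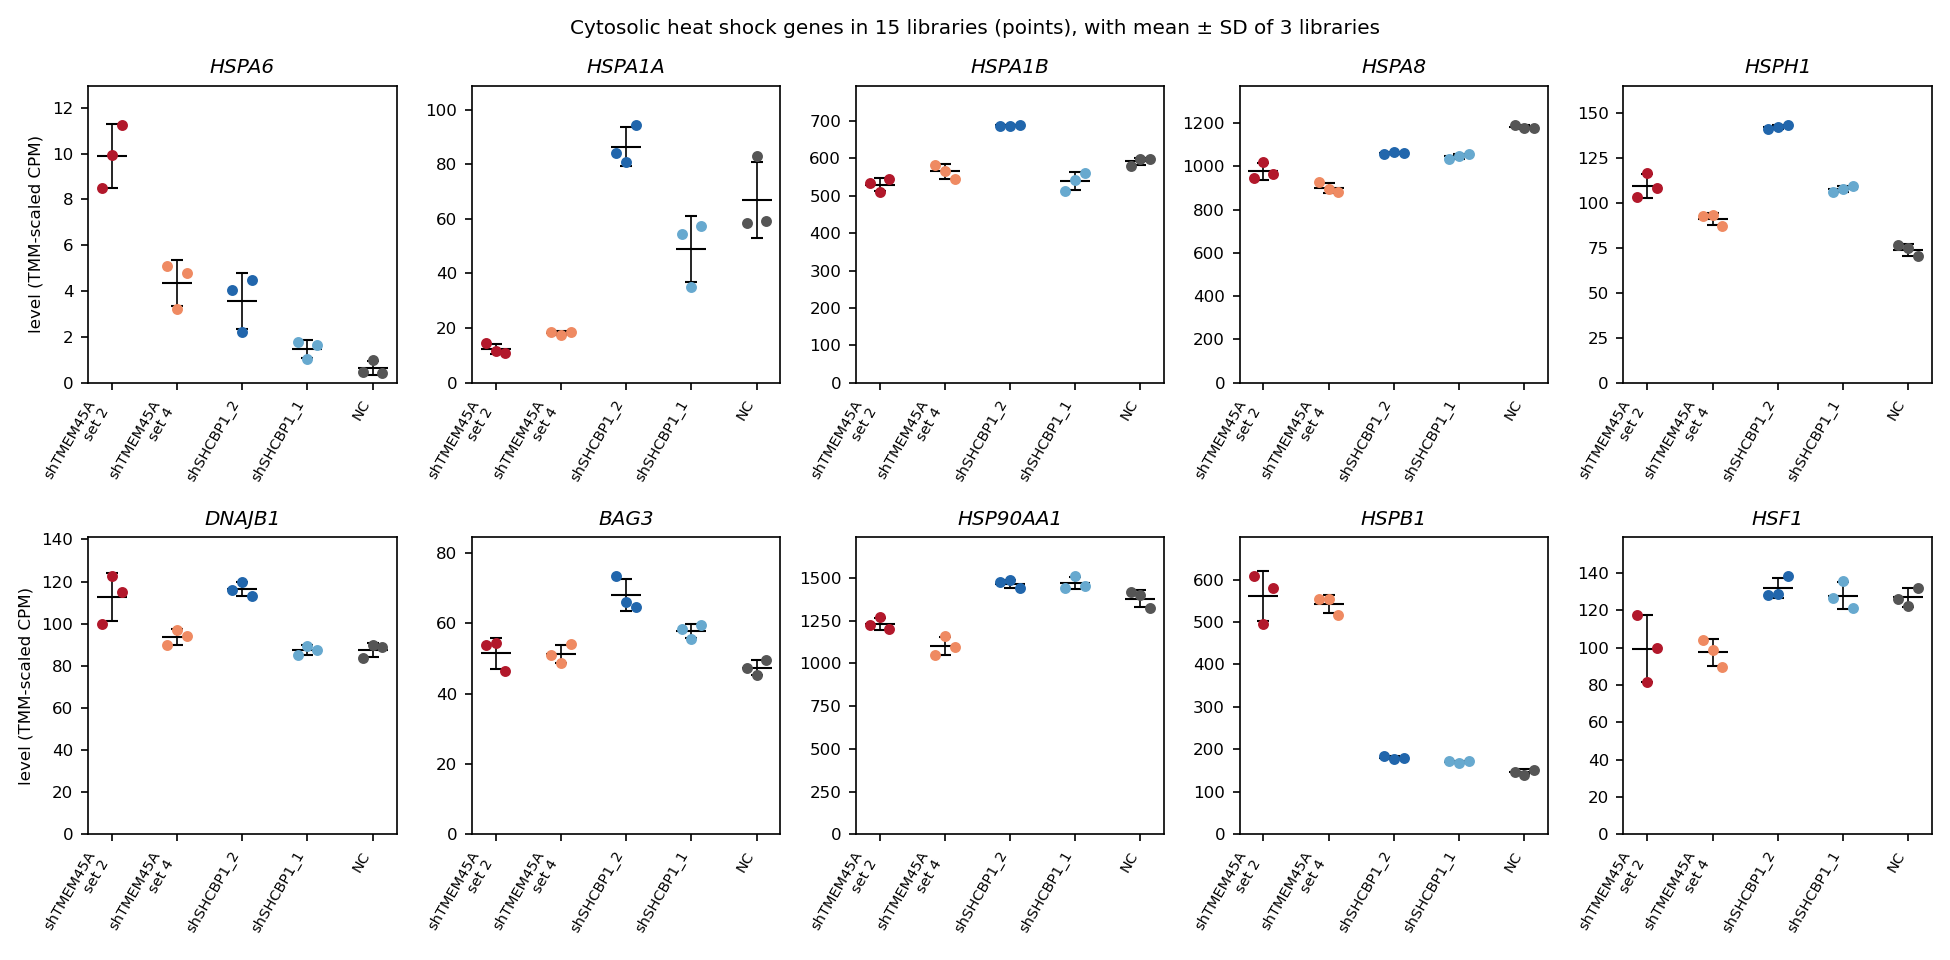
Level of each of the 10 genes (TMM-scaled CPM, linear axis from 0) in the 15 libraries, 1 point per library, with the mean and SD of 3 libraries as a line and whiskers. HSPA6 descends from 9.90 CPM in shTMEM45A set 2 to 0.627 CPM in NC, HSPA1A stands at 10.8 to 18.7 CPM in the 6 shTMEM45A libraries and at 34.99 to 94.4 CPM in the others, and HSPB1 stands at 495 to 608 CPM in shTMEM45A and at no more than 183 CPM elsewhere.

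The first comparison asks which of the 10 genes differ in cells that received a hairpin against TMEM45A. Against NC, the mean of both shTMEM45A sets was higher for HSPA6, HSPB1, HSPH1 and DNAJB1 and lower for HSPA1A, HSF1, HSPA8, HSP90AA1 and HSPA1B. BAG3, with a log2 change of 0.12 ± 0.064 (SE), did not pass (edgeR quasi-likelihood test, adjusted p = 0.0921). So 4 of the 10 were called higher where 37.3% of all genes were, and 5 lower where 41.3% were. HSPA6 is counted here, although NC was part of what it was chosen on. With 78.6% of all genes called in either direction, 9 called members of 10 is close to the background. The median log2 change of the 10 was 0.00, against -0.05 over all genes. Set 2 alone had 4 higher and 5 lower, beside 36.1% and 39.8% of all genes (75.9% in either direction). Set 4 alone had 3 higher and 4 lower, beside 35.6% and 38.9% (74.4% in either direction), and DNAJB1 and HSPA1B were not called there.

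In the libraries labelled shSHCBP1 the 10 genes had a median log2 change of 0.15 against NC, where the median of all genes was 0.01. Among them 6 were past the threshold on the higher side and 1, HSPA8, on the lower side, where 15.2% and 15.9% of all genes were. The members were proposed with the higher HSPA6 level in this contrast known, so nothing is read from these counts. By set, shSHCBP1_2 had 7 higher and 1 lower (15.6% and 15.4% of all genes), and shSHCBP1_1 had 4 higher and 3 lower (9.34% and 10.5%, or 19.9% in either direction). HSPA1A and HSPA1B are the members on opposite sides in the 2 sets. Scaling by total counts put 8 members on the higher side and none on the lower side, where 36.6% of all genes were called, 83.0% of them higher. RLE scaling put 4 and 1 there, where 34.0% of all genes were called, 32.8% of them higher.

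**Figure D2:**
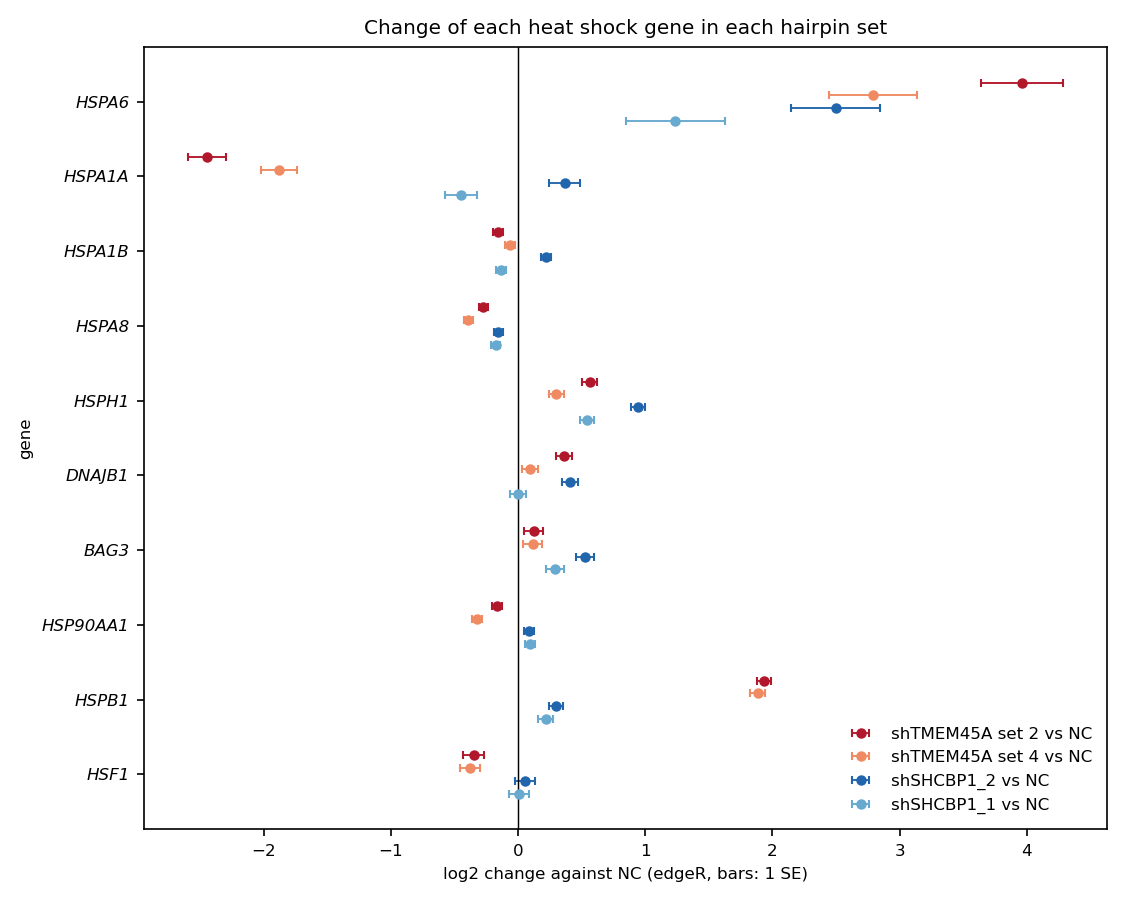
Log2 change of each gene against NC in the 4 hairpin sets (points, with 1 SE from edgeR), shTMEM45A in red tones and shSHCBP1 in blue tones. HSPA6 is to the right of 0 in all 4 sets, HSPA1A is far to the left in both shTMEM45A sets, and HSPB1 is near 1.9 in both shTMEM45A sets and near 0.3 or below in both shSHCBP1 sets.

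Among the HSP70 genes, HSPA6 showed the largest log2 changes against NC. This gene, which in humans is strictly stress-induced, stood at 8.50, 9.93 and 11.3 CPM in shTMEM45A set 2 and at 5.08, 3.22 and 4.81 CPM in set 4. It stood at 4.05, 2.20 and 4.47 CPM in shSHCBP1_2, at 1.76, 1.03 and 1.64 CPM in shSHCBP1_1, and at 0.486, 0.980 and 0.415 CPM in NC. Every hairpin library was above every NC library, and of the neighbours in this order only set 4 and shSHCBP1_2 overlapped. The mean of both shTMEM45A sets was 10.4-fold over NC, a log2 change of 3.38 ± 0.31 (SE). In the libraries labelled shSHCBP1 it was 3.65-fold over NC, a log2 change of 1.87 ± 0.34, which is the value known when the list was drawn up. The mean of the shTMEM45A sets was 1.51 ± 0.19 above that of the shSHCBP1 sets. Since the NC and shSHCBP1 levels of HSPA6 were part of its choice, these 3 differences are descriptions and carry no test.

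These HSPA6 levels rest on few reads: 117, 141 and 155 counts in set 2, 74, 44 and 63 in set 4, 63, 35 and 70 in shSHCBP1_2, 32, 16 and 26 in shSHCBP1_1 and 7, 14 and 6 in NC. HSPA7, a near-identical pseudogene that could take part of them, held between 0 and 9 counts in any library. With HSPA7 added to it, HSPA6 in the shTMEM45A mean was above NC by 3.13 ± 0.28 on the log2 scale (SE), likewise without a test.

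HSPA1A went the other way in shTMEM45A. This inducible HSP70 gene had 14.4, 11.6 and 10.8 CPM in set 2 and 18.7, 17.3 and 18.6 CPM in set 4, against 58.6, 83.01 and 59.2 CPM in NC. No shTMEM45A library came near an NC library. Its log2 change in the mean of both sets was -2.16 ± 0.12 (SE, adjusted p = 1.06e-16), which is 0.223 times the NC level. In these bulk samples, fewer cells with the transcript and less transcript per cell cannot be told apart.

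In the libraries labelled shSHCBP1, HSPA1A had 84.0, 80.6 and 94.4 CPM in shSHCBP1_2 and 54.3, 34.99 and 57.2 CPM in shSHCBP1_1. The first of these groups overlapped NC at its lower end, and all libraries of the other lay below NC. The log2 change against NC was 0.37 ± 0.12 in shSHCBP1_2 and -0.45 ± 0.13 in shSHCBP1_1, so the mean of both was -0.04 ± 0.11. The shTMEM45A mean was below the shSHCBP1 mean by -2.12 ± 0.10 on the log2 scale (adjusted p = 4.45e-18).

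HSPA1B encodes practically the same protein as HSPA1A from a neighbouring, near-identical gene, and its level moved far less. It stood at 533, 511 and 545 CPM in set 2 and 583, 568 and 545 CPM in set 4, at 687, 688 and 690 CPM in shSHCBP1_2 and 513, 543 and 560 CPM in shSHCBP1_1, and at 580, 598 and 598 CPM in NC. The 3 shSHCBP1_2 libraries lay above all 12 others. Against NC the shTMEM45A mean changed by -0.11 ± 0.035 (SE, adjusted p = 0.00449), a call that upper-quartile scaling ended (-0.04, adjusted p = 0.240).

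Reads that fit both copies can be assigned to either, and how the counting treated them is not given, so the split between HSPA1A and HSPA1B is uncertain. HSPA1A made up 2.26% ± 0.347 of the counts of the pair in set 2 and 3.12% ± 0.176 in set 4, 11.1% ± 0.799 in shSHCBP1_2 and 8.30% ± 1.95 in shSHCBP1_1, against 10.1% ± 1.79 in NC (SD, n = 3 each). Summed, the pair stood at 542 ± 17.2 CPM in set 2, 584 ± 19.3 in set 4, 775 ± 8.72 in shSHCBP1_2 and 588 ± 26.4 in shSHCBP1_1, against 659 ± 21.1 CPM in NC. The low HSPA1A share is common to the 6 shTMEM45A libraries, and the high sum to the 3 of shSHCBP1_2. As a single feature the pair changed by -0.23 ± 0.036 in the shTMEM45A mean against NC (adjusted p = 9.96e-07), a far smaller difference than that of HSPA1A alone. HSPA1L, a further copy at that locus that is mostly known from testis, held only 19, 48, 67 and 37 counts summed over set 2, set 4, shSHCBP1_2 and shSHCBP1_1, and 18 in NC.

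**Figure D3:**
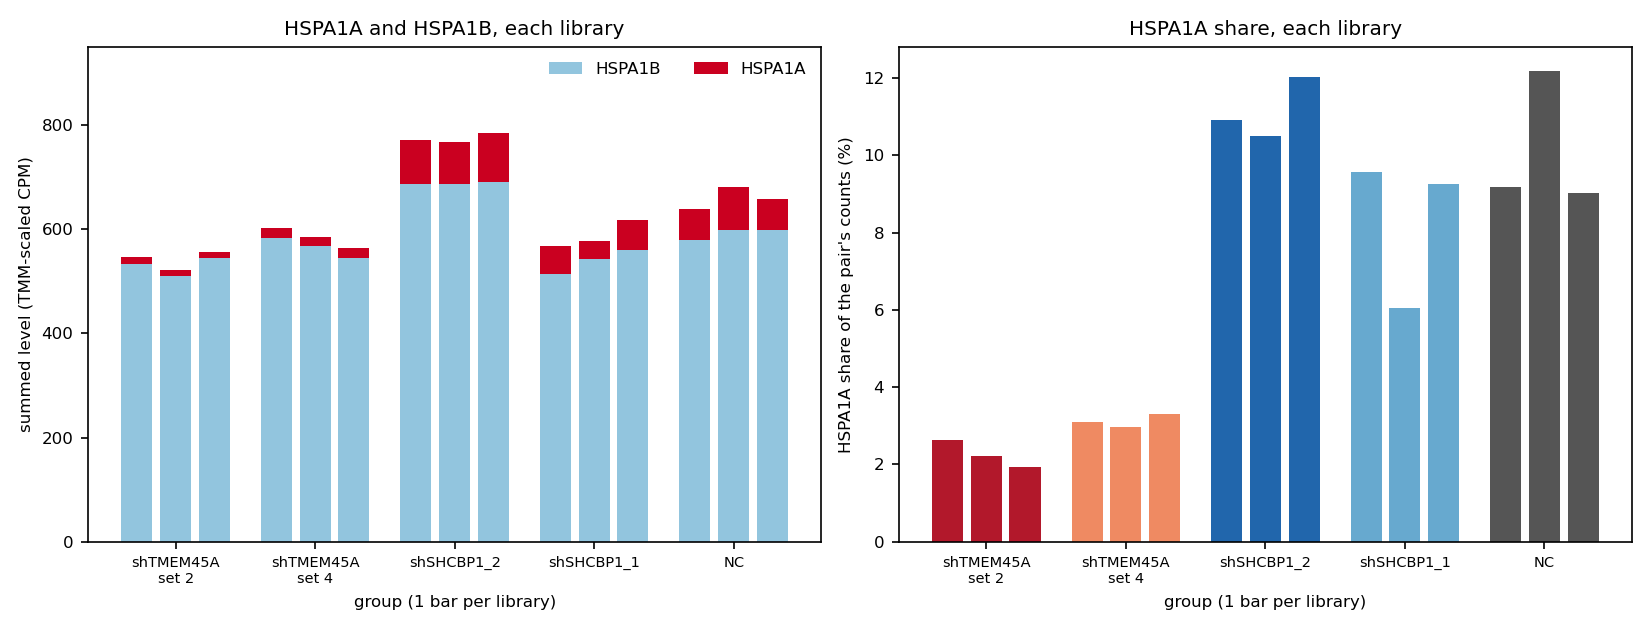
Left, summed level of HSPA1A and HSPA1B in each library (stacked bars, TMM-scaled CPM). Right, the HSPA1A share of the counts of the pair (%), which is 1.94 to 3.31% in the 6 shTMEM45A libraries and 6.05 to 12.2% in the 9 others.

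HSPA8, the constitutive HSP70 that also uncoats clathrin vesicles, had 944, 1021 and 963 CPM in set 2 and 925, 893 and 883 CPM in set 4, and 1055, 1065 and 1060 CPM in shSHCBP1_2 and 1033, 1047 and 1056 CPM in shSHCBP1_1. In NC it had 1192, 1176 and 1176 CPM, above every hairpin library. The shTMEM45A mean was lower than NC by -0.33 ± 0.031 on the log2 scale (SE, adjusted p = 3.01e-11). Against NC the libraries labelled shSHCBP1 differed by -0.16 ± 0.036 in shSHCBP1_2 and -0.18 ± 0.036 in shSHCBP1_1, values that scaling by total counts brought to 0.01 and -0.03.

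HSPH1, the HSP110 that exchanges the nucleotide of HSP70, was higher than in NC in every hairpin library. It stood at 103, 116 and 108 CPM in set 2 and 92.8, 93.3 and 87.2 CPM in set 4, at 141, 142 and 143 CPM in shSHCBP1_2 and 106, 107 and 109 CPM in shSHCBP1_1, against 76.6, 75.03 and 70.1 CPM in NC. Here shSHCBP1_2 led, and set 2 overlapped shSHCBP1_1. Against NC the shTMEM45A mean rose by 0.43 ± 0.050 (SE, adjusted p = 5.05e-09), and the shSHCBP1 mean was 0.74 ± 0.050 above NC. The shTMEM45A mean was below the shSHCBP1 mean by -0.31 ± 0.039 (adjusted p = 2.53e-08), which became -0.033 with a trend on transcript length taken off.

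DNAJB1, the J-domain partner that is itself heat-induced in human cells, separated the 2 sets of each target. It had 100.05, 123 and 115 CPM in set 2 and 89.7, 97.1 and 94.0 CPM in set 4, 116, 120 and 113 CPM in shSHCBP1_2 and 85.1, 89.5 and 87.6 CPM in shSHCBP1_1, against 83.9, 89.7 and 89.1 CPM in NC. Set 2 and shSHCBP1_2 were above NC in every library, while shSHCBP1_1 lay within the NC range. The shTMEM45A mean rose by 0.23 ± 0.055 against NC (SE, adjusted p = 0.000438), which scaling by total counts reduced to 0.04 (adjusted p = 0.534). Between the means of the targets the difference was 0.03 ± 0.044 (95% interval -0.06 to 0.11, adjusted p = 0.603).

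BAG3 couples HSP70 to selective autophagy and to the small heat shock protein HSPB8. Its level was 53.8, 54.3 and 46.4 CPM in set 2 and 50.9, 48.9 and 54.0 CPM in set 4, 73.4, 66.2 and 64.7 CPM in shSHCBP1_2 and 58.3, 55.6 and 59.4 CPM in shSHCBP1_1, against 47.2, 45.3 and 49.6 CPM in NC. All libraries labelled shSHCBP1 lay above all NC libraries, while both shTMEM45A sets overlapped NC. The shSHCBP1 mean was 0.41 ± 0.063 above NC (SE), and the shTMEM45A mean was below the shSHCBP1 mean by -0.29 ± 0.051 (adjusted p = 7.42e-06).

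HSP90AA1 is the inducible cytosolic HSP90. It stood at 1222, 1270 and 1203 CPM in set 2 and 1050, 1159 and 1096 CPM in set 4, at 1474, 1487 and 1440 CPM in shSHCBP1_2 and 1443, 1511 and 1455 CPM in shSHCBP1_1, against 1419, 1399 and 1323 CPM in NC. The shTMEM45A libraries were all below NC, and the change of their mean was -0.24 ± 0.033 (SE, adjusted p = 9.21e-08). Those labelled shSHCBP1 were all above NC, by 0.09 ± 0.033 on average, which became 0.018 with RLE scaling, 0.015 with DESeq2 and 0.24 with total-count scaling. The targets differed by -0.33 ± 0.027 (adjusted p = 1.93e-12). HSP90AB1, the constitutive HSP90 and no member of the list, is given with the other chaperones below.

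HSPB1, the small heat shock protein HSP27, had the largest log2 change against NC in shTMEM45A after HSPA6 and HSPA1A. Its level was 608, 495 and 581 CPM in set 2 and 553, 555 and 518 CPM in set 4, 183, 177 and 180 CPM in shSHCBP1_2 and 172, 168 and 172 CPM in shSHCBP1_1, against 148, 140 and 152 CPM in NC. The lowest shTMEM45A library was far above the highest of the 9 others. The mean of both shTMEM45A sets was 3.76-fold over NC, a log2 change of 1.91 ± 0.052 (SE, adjusted p = 3.90e-24), and exceeded the shSHCBP1 mean by 1.65 ± 0.040 (adjusted p = 6.34e-26). The libraries labelled shSHCBP1 were 0.26 ± 0.050 above NC, and 0.41 with total-count scaling.

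The regulator HSF1 was lower in shTMEM45A: 117, 81.6 and 99.7 CPM in set 2 and 104, 98.7 and 89.6 CPM in set 4, against 126, 122 and 132 CPM in NC. No shTMEM45A library reached the lowest NC library. The mean changed by -0.37 ± 0.069 (SE, adjusted p = 2.09e-05). The libraries labelled shSHCBP1 had 129, 129 and 138 CPM in shSHCBP1_2 and 126, 136 and 121 CPM in shSHCBP1_1, which overlap NC, and the shTMEM45A mean was below theirs by -0.40 ± 0.057 (adjusted p = 2.31e-07). HSF1 acts mainly after its protein is freed, trimerised and phosphorylated, none of which was measured here.

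Set directly against each other, the mean of the shTMEM45A sets was above that of the shSHCBP1 sets for HSPB1 and HSPA6 and below it for HSPA1A, HSF1, HSP90AA1, HSPH1, BAG3, HSPA8 and HSPA1B. That is 2 of 10 higher, where 35.2% of all genes were, and 7 lower, where 44.1% were (79.3% in either direction). HSPA6 is counted here as well, although its shSHCBP1 levels were part of its choice. The median of the 10 log2 differences was -0.23, against -0.12 over all genes. HSPA1B and HSPA8, at -0.15 ± 0.029 and -0.17 ± 0.025 (SE), lay near that overall shift. Scaling by total counts moved the overall shift to -0.47, with HSF1 at -0.74, HSP90AA1 at -0.68, HSPH1 at -0.65, BAG3 at -0.63, HSPA8 at -0.51 and HSPA1B at -0.50. The targets also differ in their table, and the difference between targets and between tables cannot be told apart here.

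Several measured features of the whole transcriptome moved with these shTMEM45A differences. The first principal component, which put all shTMEM45A libraries on the opposite side from the others, took 75.6% of the variance. Summed markers of epithelial and basal-like breast cells ran from 335 to 370 CPM in set 2 and from 322 to 362 CPM in set 4, against 157 to 162 CPM in NC, with KRT5, KRT6A, KRT6B and TP63 at 0 counts in each of these groups. KRT8, at 163 and 168 CPM in set 2 and set 4 against 79.3 CPM in NC, and KRT18, at 157 and 144 CPM against 44.6 CPM, carried most of this sum. CDH1, at 7.16 and 7.91 CPM against 12.005 CPM in NC, and EGFR, at 9.08 and 8.25 CPM against 16.3 CPM, stood lower than in NC. The other tested markers of that list stood higher in set 2 and set 4. EPCAM had 7.92 and 7.19 CPM against 4.79 CPM in NC, S100A2 11.4 and 10.1 against 1.76 CPM, and KRT17 1.13 and 2.24 against 0.116 CPM. Summed markers of an embryonic kidney and neuronal type, 9 of 10 of which were tested, ran from 211 to 226 CPM in set 2, 240 to 264 in set 4, 430 to 457 in shSHCBP1_2 and 477 to 501 in shSHCBP1_1, and from 518 to 530 CPM in NC. NEFM, at 73.8 and 106 CPM in set 2 and set 4 against 255 CPM in NC, and NEFL, at 55.9 and 67.5 CPM against 176 CPM, made up most of it. Other members of that list did not follow, as INA had 50.7 and 39.1 CPM in set 2 and set 4 and 58.5 and 59.3 CPM in shSHCBP1_2 and shSHCBP1_1, against 42.7 CPM in NC. NEFH averaged above NC in set 2 and in both shSHCBP1 sets, EYA1 in set 2 and STMN2 in set 4. LHX1 and SALL1 did so in both shSHCBP1 sets, and PAX2 in shSHCBP1_2. Across 12716 genes with a same-named mouse gene, the log2 change in the shTMEM45A mean against NC went with the length of the mouse transcript at a Spearman rho of -0.38, and that in the shSHCBP1 mean at -0.00127. Genes are not independent replicates, and no human lengths were at hand. With a smooth trend on that length taken off, the log2 change in shTMEM45A against NC was 1.39 for HSPB1, 0.63 for HSPH1, 0.40 for DNAJB1, 0.23 for BAG3, -0.40 for HSPA8, -0.43 for HSF1, -0.80 for HSP90AA1 and -1.98 for HSPA1A, and that of HSPA1B turned to 0.04. For HSP90AA1 this rests on a mouse length of 711 bases, the median over its annotated coding transcripts, which is too short to encode the whole protein. The trend taken off was 0.56 at that length and -0.18 at the 2925 bases of DNAJB1. The HSP90AA1 values with the trend taken off are therefore not reliable. Against shSHCBP1 the log2 change with the trend taken off was -0.033 for HSPH1, -0.11 for BAG3, 0.28 for DNAJB1 and, at the same short length, -0.85 for HSP90AA1. That of HSPA1B turned to 0.08. Total-count scaling, which moved the overall median against NC to -0.24, gave 0.24 for HSPH1, -0.31 for HSPA1B, -0.44 for HSP90AA1, -0.52 for HSPA8 and -0.56 for HSF1. The part of the marker lists in the results was not tested.

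The 2 hairpin sets of a target can be compared with each other within a table and without NC. Between the shSHCBP1 sets, shSHCBP1_2 was higher for HSPA6, HSPA1A, DNAJB1, HSPH1 and HSPA1B, and lower for none. These 5 of 10 stand beside 0.499% of all genes called higher in this comparison and 0.336% called lower (0.835% in either direction). HSPA6 is counted here, although its shSHCBP1 levels were part of what it was chosen on, so nothing is read from its call. At an unadjusted p under 0.05 the count was 6 higher and 0 lower, the sixth being BAG3. The share of all genes at this cut was not counted. DESeq2 called 4 higher and 0 lower, beside 2.27% of all genes in either direction, 43.4% of them higher. It gave no adjusted p for HSPA6.

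The log2 differences were 1.26 ± 0.29 for HSPA6 (SE, adjusted p = 0.0307), 0.82 ± 0.12 for HSPA1A (0.000432), 0.41 ± 0.062 for DNAJB1 (0.000432), 0.40 ± 0.055 for HSPH1 (0.000108) and 0.35 ± 0.041 for HSPA1B (1.24e-05), all by edgeR. For each of the 5, and also for BAG3 and HSPB1, which were not called, every shSHCBP1_2 library was above every shSHCBP1_1 library. The share of all genes that separate in this way was not counted, so nothing is read from the separation. The HSPA6 call remained without shSHCBP1_2 replicate 2 and was absent without any of the 5 other libraries of these sets (adjusted p up to 0.231), and with HSPA7 added it was 1.06 ± 0.27 (adjusted p = 0.0553). HSPA1A and HSPA1B as a single feature differed by 0.40 ± 0.041 (adjusted p = 1.11e-06).

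BAG3 differed by 0.24 ± 0.070 between the shSHCBP1 sets (95% interval 0.10 to 0.37, adjusted p = 0.115). HSPB1 differed by 0.08 ± 0.056 (interval -0.03 to 0.19), HSF1 by 0.05 ± 0.079 (interval -0.11 to 0.20), HSPA8 by 0.02 ± 0.036 (interval -0.05 to 0.09) and HSP90AA1 by -0.00254 ± 0.038 (interval -0.08 to 0.07). The intervals of HSPA8 and HSP90AA1 end at 0.09 and 0.07, below the 0.40 of HSPH1. SHCBP1 itself differed by -0.09 ± 0.074 between the sets.

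Between the shTMEM45A sets, set 2 was higher for HSPA6, DNAJB1, HSPH1 and HSP90AA1 and lower for HSPA1A. That is 4 of 10 higher and 1 lower, beside 1.95% and 3.32% of all genes (5.27% in either direction). The log2 differences were 1.18 ± 0.24 for HSPA6 (SE, adjusted p = 0.00361), 0.27 ± 0.063 for DNAJB1 (0.0103), 0.26 ± 0.056 for HSPH1 (0.00508), 0.16 ± 0.039 for HSP90AA1 (0.0118) and -0.57 ± 0.17 for HSPA1A (0.0432), again by edgeR. With only the 6 libraries of these sets in the fit, HSPA6 alone was called. Without library 1 of set 4, HSPA6 and HSPH1 were called, and DNAJB1 (adjusted p = 0.0599) and HSP90AA1 (0.0870) were not.

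The HSPA1A difference between the shTMEM45A sets lost its call in 5 of the 6 fits that left out a library (adjusted p up to 0.125) and with DESeq2 (0.0853), and the summed pair differed by -0.11 ± 0.041 (0.135). HSPA8 differed by 0.12 ± 0.036 (adjusted p = 0.0533), which RLE scaling, upper-quartile scaling and DESeq2 put past the threshold. HSPA1B at -0.09 ± 0.041, HSPB1 at 0.05 ± 0.054, HSF1 at 0.03 ± 0.082 and BAG3 at 0.01 ± 0.074 were not called.

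DNAJB1 and HSPH1 were thus called higher both in shTMEM45A set 2 over set 4 and in shSHCBP1_2 over shSHCBP1_1. HSPA1A went in opposite directions. These comparisons share no library, but they come from the same fit with a common estimate of the spread. With only the shTMEM45A sets in the fit, edgeR called neither DNAJB1 (adjusted p = 0.140) nor HSPH1 (0.108) between set 2 and set 4. HSPA6 was higher in both as well, but its shSHCBP1 levels were part of its choice. The set numbers of different targets have no relation to each other.

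**Figure D4:**
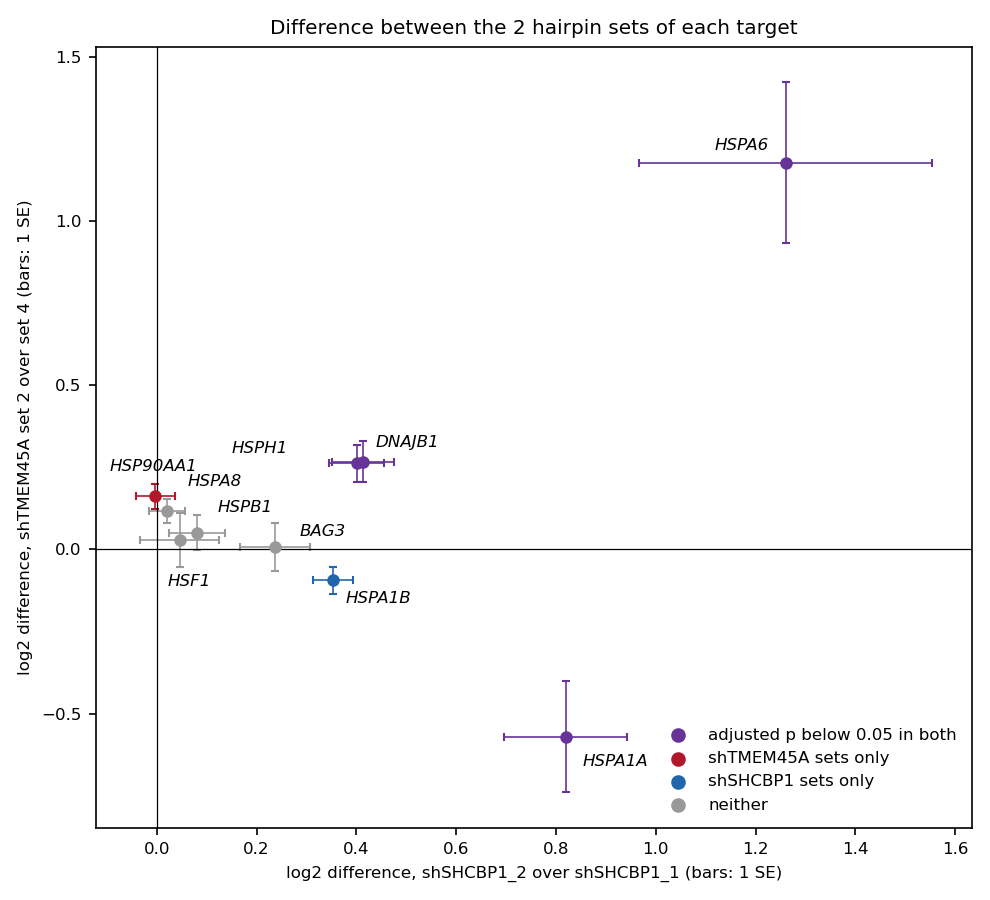
Log2 difference between the 2 hairpin sets of SHCBP1 (x axis, shSHCBP1_2 over shSHCBP1_1) and of TMEM45A (y axis, set 2 over set 4) for the 10 genes, with 1 SE on each axis and colour for the edgeR call. HSPA6 lies at 1.26 and 1.18, HSPH1 and DNAJB1 near 0.4 and 0.26, and HSPA1A at 0.82 and -0.57.

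To place the 10 genes among the other genes of the heat shock response, 7 lists of chaperones, co-chaperones, HSF1 regulators and further HSF1 targets were counted in the same fit, with 89 of 99 names tested. In the shTMEM45A mean against NC, 36 of the 89 were higher and 39 lower, and their median log2 change was -0.02, against -0.05 over all genes. As 37.3% of all genes were called higher and 41.3% lower (78.6% in either direction), the counts by list are descriptions. Among the 7 tested other members of the HSP70 and HSP110 family, 3 were higher and 3 lower with a median of 0.49. HSPA4, a further HSP110, rose to 319 ± 12.7 CPM in set 2 and 307 ± 1.94 CPM in set 4, against 216 ± 5.51 CPM in NC (SD, n = 3 each; log2 change 0.53 ± 0.039), and the distant relative HSPA12B rose by 0.77 ± 0.19. HSPA4L and HSPA12A, their closest relatives, fell by 0.70 and 0.50 on the log2 scale.

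J-domain co-chaperones gave 5 higher and 10 lower of 19 in shTMEM45A, beside 37.3% and 41.3% of all genes, with a median log2 change of -0.26. DNAJC9, which also carries histones, changed by -1.78 ± 0.077 (SE) and the clathrin-uncoating auxilin DNAJC6 by -1.45 ± 0.090. DNAJB2, a ubiquitin-binding J protein best known from neurons, rose to 90.8 ± 12.03 CPM in set 2 and 90.5 ± 5.16 CPM in set 4, against 32.1 ± 0.50 CPM in NC (SD, n = 3 each), and DNAJB12, a J protein of the endoplasmic reticulum membrane, rose by 1.11 ± 0.072 (SE) on the log2 scale.

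HSP90 and its co-chaperones were split, 9 higher and 10 lower of 21, beside 37.3% and 41.3% of all genes, with a median log2 change of -0.02. AHSA1, which activates the HSP90 ATPase, rose by 0.82 ± 0.044 (SE). The phosphatase PPP5C changed by -1.20 ± 0.052 and CHORDC1 by -0.85 ± 0.061. HSP90AB1 had 1099 ± 30.1 CPM in set 2 and 1327 ± 23.6 CPM in set 4, against 2095 ± 46.2 CPM in NC, a log2 change of -0.79 ± 0.028, and was thus lower together with HSP90AA1.

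All 10 HSP70 co-chaperones and BAG proteins passed in shTMEM45A, 6 higher and 4 lower, with a median log2 change of 0.50. Over all genes 37.3% were higher and 41.3% lower (78.6% in either direction). TTC1 rose by 2.06 ± 0.070 (SE) and HSPBP1, a nucleotide exchange factor of HSP70, by 1.52 ± 0.059, while SGTB changed by -1.75 ± 0.089 and BAG6, which handles tail-anchored proteins, by -0.78 ± 0.048. Of 5 small heat shock proteins 3 were higher and 0 lower by edgeR (3 and 0 also at an unadjusted p under 0.05, 2 and 0 by DESeq2), with a median of 0.58. Of these, HSPB8, the partner of BAG3, rose by 0.99 ± 0.17 and HSPB11, which works in intraflagellar transport, by 1.11 ± 0.067.

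Heat shock factors and regulators of HSF1 gave 2 higher and 8 lower of 12 in shTMEM45A, beside 37.3% and 41.3% of all genes. Their median log2 change was -0.79. HSBP1, which binds HSF1 trimers, rose by 0.75 ± 0.040 (SE) and the related HSBP1L1 by 1.16 ± 0.14, while the acetyltransferase EP300 changed by -1.78 ± 0.080 and its cofactor TTC5 by -1.43 ± 0.12. Of 15 other heat-inducible HSF1 targets 8 were higher and 4 lower, with a median of 0.29. ZFAND2A, which binds the proteasome and is induced by arsenite, had 37.3 ± 2.76 CPM in set 2 and 31.2 ± 0.406 CPM in set 4, against 11.03 ± 0.934 CPM in NC. HSPE1 rose by 1.39 ± 0.066, whereas HSPD1, its partner in the mitochondrial chaperonin, changed by -0.52 ± 0.035 and the cytosolic chaperonin subunit TCP1 by -0.50 ± 0.034. Apart from HSP90AB1, the genes named in these lists were chosen among those called in both sets. Nothing is therefore read from those calls or from their adjusted p, the largest of which by edgeR was 0.000715, for HSPA12B.

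In the libraries labelled shSHCBP1, 21 of the 89 were past the threshold above NC and 22 below it, at 31.1% of all genes in either direction, with a median log2 change of 0.03. By list this was 4 higher and 0 lower of 7 for other HSP70 and HSP110 genes (5 and 0 at an unadjusted p under 0.05, 3 and 0 by DESeq2), 6 and 3 of 19 for J-domain proteins, 1 and 8 of 21 for HSP90 and its co-chaperones, 4 and 2 of 10 for HSP70 co-chaperones, 1 and 1 of 5 for small heat shock proteins, 1 and 5 of 12 for HSF1 regulators and 4 and 3 of 15 for other HSF1 targets. The values above NC included 0.77 ± 0.071 (SE) for TTC1, 0.52 ± 0.093 for ZFAND2A, 0.48 ± 0.074 for DNAJB2, 0.46 ± 0.11 for DNAJB4 and 0.39 ± 0.073 for HSPA13, a microsomal HSP70 relative. Smaller values above NC were 0.26 ± 0.037 for STIP1, which links HSP70 to HSP90, 0.23 ± 0.039 for HSPA4 and 0.23 ± 0.054 for SGTA. Below NC stood the deacetylase HDAC6 at -0.42 ± 0.062, the myosin chaperone UNC45A at -0.33 ± 0.054, BAG6 at -0.28 ± 0.048, RPA1 at -0.25 ± 0.045, ST13 at -0.24 ± 0.036, TCP1 at -0.19 ± 0.035 and HSPD1 at -0.18 ± 0.035.

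**Figure D5:**
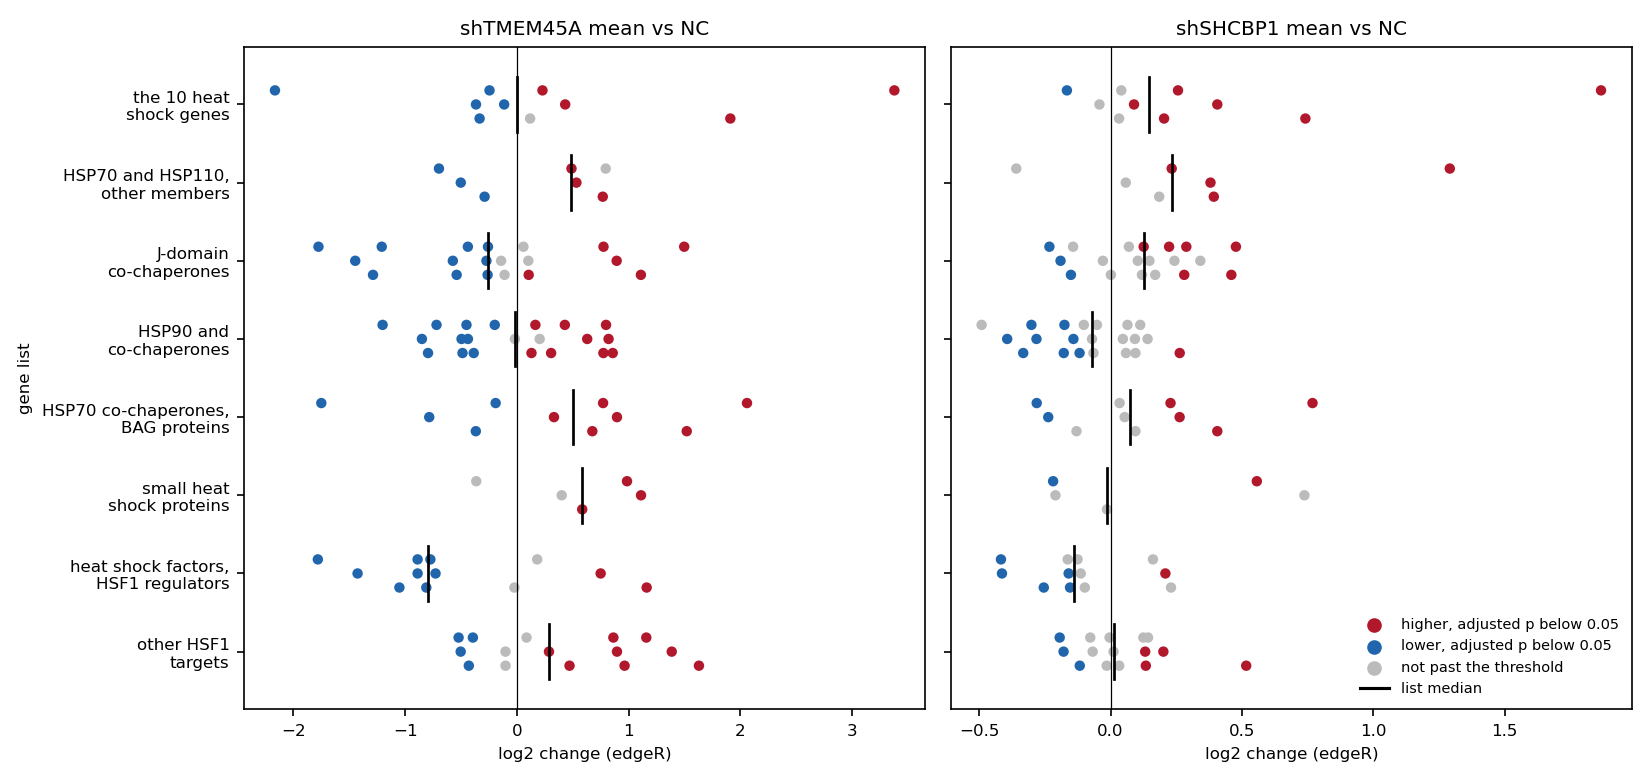
Log2 change against NC of each tested gene in the 10 heat shock genes and 7 further lists, in the mean of both shTMEM45A sets (left) and of both shSHCBP1 sets (right, on a narrower axis), coloured by the edgeR call, with the median of each list as a line. In shTMEM45A the heat shock factors and HSF1 regulators have the lowest median, at -0.79. The right panel is a description, as the 10 genes were proposed with the higher HSPA6 level in that contrast known.

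The lists were also counted between the sets of a target. Between shSHCBP1_2 and shSHCBP1_1, edgeR called 0 of the 89 in either direction, beside 0.835% of all genes. At an unadjusted p under 0.05 it was 12 higher and 6 lower, without a share of all genes at that cut. DESeq2 called 1 higher and 1 lower, beside 2.27% of all genes in either direction. Between the shTMEM45A sets, where 1.95% of all genes were higher and 3.32% lower, 2 of the 89 were higher in set 2, DNAJB6 by 0.21 ± 0.051 (SE) and HSPBP1 by 0.24 ± 0.060. Another 3 were lower, DNAJC9 by -0.51 ± 0.11, IER5, an immediate early gene that acts on HSF1, by -0.41 ± 0.059, and HSP90AB1 by -0.27 ± 0.034, the last opposite in direction to HSP90AA1. DNAJB6, IER5 and HSP90AB1 were named here after their values were seen. No test compared the 10 genes with the lists.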

How the data were processed

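Messenger RNA was enriched with oligo-dT beads, primed at random and sequenced as paired ends, per the labels' protocols, with a kit that does not mark strand. The values are raw read counts per gene in the 2 tables the authors deposited, without normalization. Not given in the sources used here are the aligner, the counting program and its treatment of reads that fit several genes. The labels name mouse as the organism, and the submitters' processing notes name the build mm10, while the tables carry human gene symbols; no coordinates or sequences are therefore given.

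All 15 columns were mapped to groups by name, and 0 columns were unused. The shTMEM45A columns are numbered 2 and 4 where the labels number the sets 1 and 2, so set 4 was matched by elimination, its libraries are known only by group, and which hairpin sequence it carries is open. Of 58735 rows, 1768 rows that share 200 names were left out. Genes passing filterByExpr (minimum count 10, minimum total 15), 19051 in all, were fitted in a single edgeR 4.0.16 quasi-likelihood model of 5 group means with TMM scaling (R 4.3.3). P-values were adjusted by Benjamini-Hochberg over all genes tested, with a threshold of 0.05. Standard errors follow from the F statistic (absolute log2 change over its square root). Library totals were 13780294 to 16484000 counts. No 2 libraries of a group agreed within sampling noise, so none was merged with another.

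The 10 genes and the 7 further lists were chosen with earlier results of these data known. Contrasts of libraries labelled shSHCBP1 with NC, and those of HSPA6 with NC or between targets, are therefore given without p-values. HSPA6 keeps its p-value between the shSHCBP1 sets, but nothing is read from that call. In each list, the text names up to 2 genes per direction and target with the largest change among those called in both sets, and the 5 genes most correlated with HSPA6 and with HSPA1A; a gene that this rule also names is not reported here. Alternatives were RLE, upper-quartile and total-count scaling, DESeq2 1.42.0, a stricter filter and none, fits on the compared groups alone, a replicate block, near-identical copies summed and leaving out each library. The fits were tested on simulated data.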

Additional observations from a re-analysis of the deposited data

Results flagged for a closer look

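Each of these differences was picked out because the 2 hairpin sets of the same target differed in it by edgeR's test of the difference itself, adjusted over all genes. HSPA1A was higher in shSHCBP1_2 than in shSHCBP1_1 by 0.82 on the log2 scale. HSPA1B was higher in shSHCBP1_2 than in shSHCBP1_1 by 0.35. HSPA6 was higher in shSHCBP1_2 than in shSHCBP1_1 by 1.26, at 168 against 74 counts summed over 3 libraries, levels that were part of its choice. HSPH1 differed between these sets by 0.40 and DNAJB1 by 0.41, both higher in shSHCBP1_2.

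In shTMEM45A, HSPA1A was lower in set 2 than in set 4, with a log2 difference of -0.57. HSPA6 was higher in set 2 than in set 4 by 1.18, HSPH1 by 0.26, DNAJB1 by 0.27 and HSP90AA1 by 0.16. Groups of 3 libraries were not tested for outlying libraries.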

How the results depend on the processing

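Members called in the shTMEM45A mean against NC numbered 9, and 8 to 9 under the alternatives that kept all libraries, those in the shTMEM45A mean against the shSHCBP1 mean 9, and 8 to 10. Between the shSHCBP1 sets 5 were called, and 3 of 9 features with near-identical copies summed. Between the shTMEM45A sets 5 were called, and 1 with only these sets in the fit. Leaving out single libraries gave 2 to 6 between the shTMEM45A sets and 4 to 5 between the shSHCBP1 sets. Counts over all genes moved more: between the shSHCBP1 sets 159 genes were called, 1674 with only these groups in the fit and 433 with DESeq2, and between the shTMEM45A sets 1004, and 129 with only these groups.

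Total-count scaling shifted the median of all genes to -0.24 in shTMEM45A against NC, 0.16 in shSHCBP1 against NC and -0.47 in shTMEM45A against shSHCBP1. It turned BAG3 to -0.067, -0.076 and -0.072 in set 2, set 4 and their mean against NC, DNAJB1 to -0.10 in set 4 against NC and to -0.32 in the shTMEM45A mean against the shSHCBP1 mean. It also turned HSPA8 to 0.00912 in shSHCBP1_2 against NC, HSPA1B to 0.00710 in shSHCBP1_1 against NC and HSP90AA1 to 0.020 between the shSHCBP1 sets. Of the calls over all genes in shSHCBP1 against NC, 48.8% were higher, 32.8% with RLE scaling, 32.1% with DESeq2 and 83.0% with total-count scaling. In shTMEM45A against shSHCBP1 44.3% were higher, and 29.7% with total-count scaling. Between the shSHCBP1 sets it was 59.7%, 80.7% with total-count scaling, 41.0% with upper-quartile scaling and 43.4% with DESeq2.

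Upper-quartile scaling turned HSPA8 to -0.00452 between the shSHCBP1 sets and put BAG3 past the threshold in the shTMEM45A mean against NC (0.19, adjusted p = 0.00994). Without the filter BAG3 was -0.013 between the shTMEM45A sets and DNAJB1 -0.00764 in the shTMEM45A mean against the shSHCBP1 mean. A trend on the length of the same-named mouse gene, added after seeing the data because no human lengths were at hand, covered 9 of the 10 genes. It turned HSPA1B to 0.084 in set 4 and 0.042 in the mean against NC and to 0.080 against shSHCBP1, and HSP90AA1 to 0.00777 between the shSHCBP1 sets. The last value rests on the length used for HSP90AA1, which is too short.

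Leaving out single libraries moved HSP90AA1 between the shSHCBP1 sets over -0.0148 to 0.0186, and DNAJB1 in the shTMEM45A mean against the shSHCBP1 mean over -0.0100 to 0.0616. Between the shTMEM45A sets it moved HSF1 over -0.11 to 0.15, BAG3 over -0.0357 to 0.0723 and HSPB1 over -0.0142 to 0.13. The cause was not tested for any of these.

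Same-numbered libraries deviated together, at a correlation above 0.1, in none of 18 pairs (correlations -0.0353 to 0.0377). A small shared effect could be hidden by counting noise, so whether same-numbered libraries share more than a number is not settled by this. With a replicate block over the 12 libraries that carry labelled numbers, 7 members were called in shSHCBP1 against NC and 5 between the shSHCBP1 sets, as without it. The shares of all genes called with the block were 33.1% and 0.958%. HSPA6 levels in NC rest on 27 counts in all, so depth limits the precision of its fold changes.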

Other observations

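Genes whose levels went most closely with HSPA6 across the 15 libraries, among 15848 genes compared by Pearson correlation of log2 levels, were SAR1B, TRIB3, COG2 and ZNF202 at 0.96 and IFIT5 at 0.95. TRIB3, a pseudokinase induced in the integrated stress response, averaged 46.5 CPM in shTMEM45A set 2, 33.2 in set 4, 31.0 in shSHCBP1_2 and 24.0 in shSHCBP1_1, and 18.5 CPM in NC. Those closest to HSPA1A were CDK5R1 at 0.98 and MAPK8IP1, TMEM30A, RHBDF1 and SLC4A7 at 0.97. CDK5R1, the activator of CDK5, averaged 11.5 CPM in set 2, 13.8 in set 4, 26.0 in shSHCBP1_2 and 22.5 in shSHCBP1_1, and 24.4 CPM in NC. The 15 libraries fall into 5 groups, and the shTMEM45A libraries stand apart in much of the transcriptome, so these correlations are descriptions of the groups.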
